A study of Mus musculus with 4 samples.

Results

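The 10 genes grouped here as sperm-egg fusion genes (Izumo1, Izumo2, Izumo3, Izumo4, Spaca6, Tmem81, Tmem95, Llcfc1, Dcst1 and Dcst2) were read in pachytene spermatocytes of Hsf5 knockdown and wild-type (WT) mice. Izumo2, Izumo3 and Izumo4 are in the group as paralogs of Izumo1. The 10 genes were taken by gene symbol from a table of 50763 genes, and all 10 symbols were present. Pachytene spermatocytes are germ cells in the long stage of meiotic prophase at which homologous chromosomes are fully synapsed. Hsf5 encodes a heat shock factor made mainly in the testis. Cells labelled as purified from testis gave 2 libraries of Hsf5 knockdown and 2 of WT genotype, and polyadenylated RNA was sequenced. The labels call the replicates biological and give no strain, age or method of knockdown. The spread behind each p-value is that between the libraries of a group, with each gene's estimate drawn towards a trend over all tested genes. The targeted gene had 287 and 238 CPM (read counts scaled to library size with TMM factors) in the knockdown libraries, against 586 and 449 CPM in the WT libraries (log2 fold change -0.98, SE 0.31; edgeR quasi-likelihood test, adjusted p = 0.0217). That call was lost when libraries were scaled by their totals alone (-0.55, adjusted p = 0.116), without WT replicate 1 (-0.79, adjusted p = 0.219) and without WT replicate 2 (-1.13, adjusted p = 0.0725).

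Fusion is the last step of fertilisation, after the sperm has shed the contents of its acrosome and crossed the zona pellucida. IZUMO1, an immunoglobulin-like protein of the inner acrosomal membrane, binds the egg receptor JUNO (gene Izumo1r) and so holds the gametes together. SPACA6 and TMEM81 are further single-pass sperm membrane proteins that associate with IZUMO1. TMEM95, LLCFC1 (also called SOF1) and the multipass proteins DCST1 and DCST2 are each needed for fusion in mice at a step after binding. The proteins act in sperm, many days after the pachytene stage, and their genes are known for transcription in late meiotic and haploid germ cells.

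All 9 fusion genes that had a count were lower on average in the Hsf5 knockdown, and 8 of the 9 passed the test. Among all genes, 33.5% of the 23594 genes tested were called lower and 27.4% higher (edgeR quasi-likelihood test, adjusted p under 0.05). Spaca6 was the one that did not pass, and Tmem81 had no count in any library. Izumo2, Izumo3, Llcfc1, Dcst1 and Tmem95 met the filter for low counts through their WT libraries alone, so they could only be called lower. Izumo1, Izumo4 and Dcst2 met it in the knockdown libraries too and were called lower. Summed over the 10 genes the level was 47 and 43.4 CPM in the knockdown libraries and 556 and 349 CPM in the WT libraries. The median log2 fold change of the 9 was -5.56, against -0.12 for all tested genes. With the genes without a knockdown count at their bounds it was also -5.56, and since both bounds lie beyond the median they could not move it. For all 9 both knockdown values lay below both WT values, a pattern that 43.7% of tested genes shared. Falls ran over a wide range, with Spaca6 at 36.5% and Izumo4 at 15.2% of the WT level and Llcfc1 and Izumo3 without a count.

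**Figure D1:**
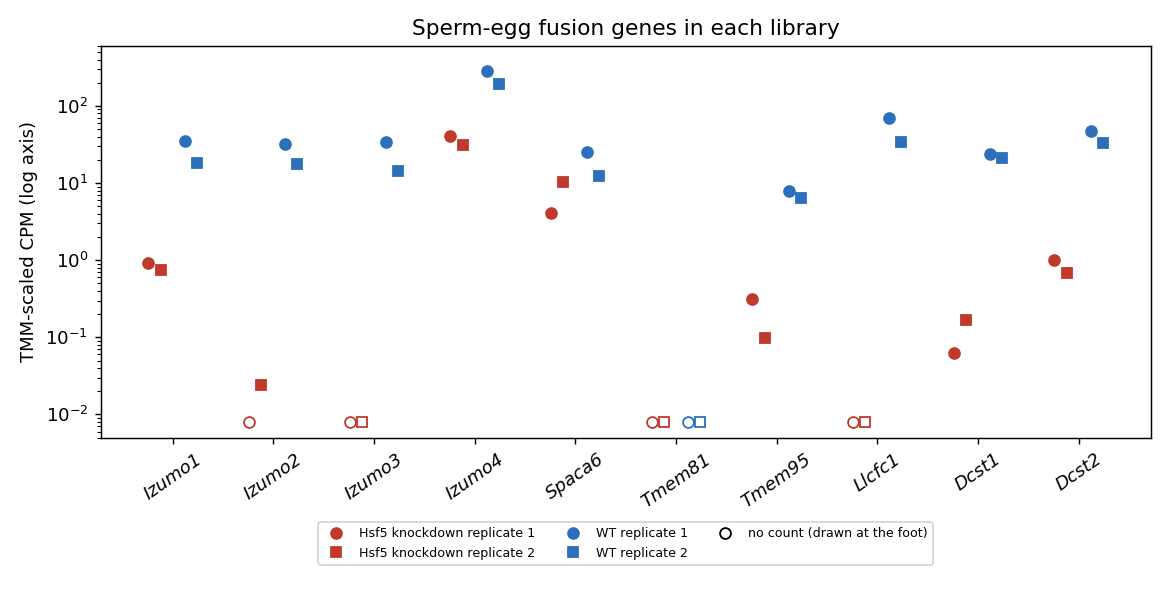
TMM-scaled CPM (log axis) of the 10 fusion genes in each library, with Hsf5 knockdown libraries in red left of WT libraries in blue, replicate 1 as circles and replicate 2 as squares; open symbols at the foot had no count. Izumo4 kept 40.6 and 31.4 CPM in the knockdown, Spaca6 lay closest to its WT values, and Llcfc1 and Izumo3 had no knockdown count.

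Izumo1, the ligand of the group, had 44 and 31 counts in the knockdown libraries and 1167 and 531 counts in the WT libraries. These were 0.931 and 0.751 CPM in knockdown libraries and 34.8 and 18.4 CPM in WT. The knockdown replicates lay close together and far under both WT libraries, which differed from each other. Izumo1 fell by 4.98 on the log2 scale (SE 0.53; edgeR, adjusted p = 8.28e-05), and the knockdown kept 3.11% of the WT level, with 2.16% to 5.05% over the 4 pairs of libraries. In GENCODE M21 (GRCm38, an older build than the mm39 of the counts) Izumo1 overlaps Rasip1 on the same strand. Rasip1 had 8.27 and 6.88 CPM in the knockdown libraries and 3.75 and 3.65 CPM in the WT libraries, so its values lay on the other side of WT (log2 fold change 1.03, SE 0.47; adjusted p = 0.0845). Reads in the shared stretch cannot be assigned without the authors' counting settings, which the sources used here do not give.

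The start of Izumo1 is shown because it was the only fusion gene window that held a letter match to a paired heat shock element. Paired elements are the kind of site that heat shock factors bind, and binding of HSF5 here was not tested. The window runs from 250 bases before to 50 after the start site in RefSeq (GRCm38.p6, chr7:45621561-45621860, plus strand). Capitals mark that match (GAANNTTC), 124 bases before the start, and a match to the cyclic AMP response element (TGACGTCA), 96 bases before it.
Izumo1: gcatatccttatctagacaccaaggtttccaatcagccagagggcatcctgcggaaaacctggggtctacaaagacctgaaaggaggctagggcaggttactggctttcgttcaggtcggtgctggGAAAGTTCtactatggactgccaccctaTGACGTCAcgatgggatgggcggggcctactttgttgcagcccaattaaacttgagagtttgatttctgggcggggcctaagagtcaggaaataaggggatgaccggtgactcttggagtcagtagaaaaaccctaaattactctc
Both strands were searched, and of 32544 RefSeq windows of the same length 7.89% held GAANNTTC and 1.8% TGACGTCA. For GAANNTTC the 1 of 9 fusion gene windows was thus near the share of all windows. None of the 9 fusion gene windows in the table held the other order of the heat shock pair, TTCNNGAA, which 8.55% of all windows did. The X-box core GTTNCC was in 3 of the 9 (Izumo1, Izumo3 and Spaca6), against 45.3% of all windows. The MYB core AACNG was in 8 of 9, against 80.2%, and Izumo1 was the window without it. These letter matches are descriptions and not binding sites. Izumo4 had no window in the table.

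The paralogs of Izumo1 did not fall alike. Izumo2 had no count and 1 count in the knockdown libraries and 1086 and 510 counts in the WT libraries, which is 0 and 0.0242 CPM against 32.3 and 17.7 CPM. Its WT level was thus near that of Izumo1 in CPM, while 1 count was left in the knockdown. The WT to knockdown ratio was 2266, with a 95% counting interval (exact Poisson, on the single knockdown count) from 407 to 89499.9, and the gene passed the test (edgeR, adjusted p = 1.84e-05).

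Izumo3, whose protein is known for its part in building the acrosome, had no count in either knockdown library and 1153 and 418 counts in the WT libraries (34.3 and 14.5 CPM). Set against 3 counts shared by both knockdown libraries, a floor of 0.0339 CPM, it was at least 743-fold lower (edgeR, adjusted p = 3.99e-05). No count in both knockdown libraries was seen for 5.76% of all tested genes.

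Izumo4, whose protein lacks the membrane anchor of the other family members, was the exception in size. It had 40.6 and 31.4 CPM in the knockdown libraries and 281 and 191 CPM in the WT libraries. Both groups were well above the floor and did not overlap. Izumo4 fell by 2.71 on the log2 scale (SE 0.33; edgeR, adjusted p = 0.000187) and kept 15.2% of its WT level, with 11.2% to 21.3% over pairs of libraries, a range above that of Izumo1. It made up 86.3% and 72.4% of the summed fusion gene CPM in the knockdown libraries, against 50.5% and 54.8% in the WT libraries.

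The partners of IZUMO1 in the sperm membrane could be followed for Spaca6 only. Spaca6 had 194 and 425 counts in the knockdown libraries and 843 and 352 counts in the WT libraries, which is 4.1 and 10.3 CPM in knockdown libraries and 25.1 and 12.2 CPM in WT. The replicates of each group were further apart than for Izumo1, and knockdown replicate 2 came close to WT replicate 2. The log2 fold change of -1.38 (SE 0.55) did not pass (edgeR, adjusted p = 0.0544). Scaled by totals alone the groups overlapped, at 4.57 and 12.5 CPM in the knockdown libraries and 21.4 and 10.6 CPM in the WT libraries. Spaca6 passed as lower without knockdown replicate 2 (-2.17, adjusted p = 0.017) and without WT replicate 2 (-1.78, adjusted p = 0.00205), whereas its log2 fold change was -0.78 without knockdown replicate 1 (adjusted p = 0.292) and -0.78 without WT replicate 1 (adjusted p = 0.252). Leydig cell markers also stood higher in knockdown replicate 2 than in replicate 1, summing to 1407 and 2858 CPM in knockdown replicates 1 and 2 and to 116 and 792 CPM in WT replicates 1 and 2. Between the WT libraries the Leydig sum was higher in replicate 2, while Spaca6 was lower there. Sums of Sertoli (4428 and 5024 CPM) and endothelial markers (18.1 and 44.8 CPM) were also higher in knockdown replicate 2 than in replicate 1. Those of macrophage and peritubular myoid markers were lower. The part of any of these cells in the Spaca6 values was not tested. The microRNA genes Mir99b, Mirlet7e and Mir125a, which overlap Spaca6 on the same strand in GENCODE M21, had no count in any library. For Tmem81, a count of 0 in every library allows up to 0.0339 CPM in knockdown cells and 0.0481 CPM in WT cells. No other gene overlaps Tmem81 in GENCODE M21, and the annotation behind the counts is not given in the sources used here.

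Tmem95, which acts after binding, had few counts: 15 and 4 in the knockdown libraries and 269 and 185 in the WT libraries. This is 0.317 and 0.0969 CPM against 8.01 and 6.42 CPM. The WT libraries lay close together here, and the groups were far apart. Tmem95 fell by 5.08 on the log2 scale (SE 0.72; edgeR, adjusted p = 0.000395), and kept 2.95% of its WT level, with 1.21% to 4.94% over pairs of libraries. Its log2 fold change was -6.09 without knockdown replicate 1 and -4.49 without knockdown replicate 2.

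Llcfc1 had the highest WT level in CPM after Izumo4 and no count in the knockdown. The WT libraries held 2356 and 984 counts (70.2 and 34.2 CPM), and the gene was at least 1580-fold lower in the knockdown (edgeR, adjusted p = 1.48e-05). Its start window is shown as that of the fusion gene with the largest bound on its fall (RefSeq, GRCm38.p6, chr6:41684181-41684480, plus strand), with the single MYB core match in capitals. MYBL1 of the MYB family is a known regulator of pachytene transcription. The MYB core was in 80.2% of all windows, and MYBL1 binding at Llcfc1 was not tested.
Llcfc1: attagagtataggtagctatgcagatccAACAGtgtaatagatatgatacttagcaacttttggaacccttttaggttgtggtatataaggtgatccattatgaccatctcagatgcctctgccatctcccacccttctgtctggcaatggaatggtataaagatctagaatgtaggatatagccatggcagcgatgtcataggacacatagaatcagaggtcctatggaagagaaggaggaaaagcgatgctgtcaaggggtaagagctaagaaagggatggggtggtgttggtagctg
The window was A- and T-rich with a GC content of 43.7% and 2 CpG dinucleotides, while the Izumo1 window had 50.7% and 8.

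Dcst1 and Dcst2, whose products resemble the DC-STAMP protein of fusing osteoclasts, fell together. Dcst1 had 3 and 7 counts in the knockdown libraries and 800 and 604 in the WT libraries, or 0.0635 and 0.169 CPM against 23.8 and 21 CPM. Dcst2 had 1.02 and 0.678 CPM in knockdown libraries and 47 and 33.4 CPM in WT. All WT values were more than an order of magnitude over the knockdown values. Dcst1 fell by 7.57 (SE 0.63; edgeR, adjusted p = 2.35e-05) and Dcst2 by 5.56 (SE 0.48; adjusted p = 2.64e-05) on the log2 scale. Dcst1 kept 0.502% of its WT level, with 0.266% to 0.808% over pairs of libraries, and Dcst2 kept 2.11%, with 1.44% to 3.04%. The log2 fold change of Dcst1 was -6.94 without knockdown replicate 1 and -8.38 without knockdown replicate 2.

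The Dcst genes lie head to head on chromosome 3, and their RefSeq windows share 165 bases (GRCm38.p6, chr3:89365204-89365368, given on the plus strand, that of Dcst2). The shared stretch is shown because the pair moved together. Capitals mark the 65 bases between the start site of Dcst1, to the left and read on the minus strand, and that of Dcst2, to the right.
Dcst1 and Dcst2: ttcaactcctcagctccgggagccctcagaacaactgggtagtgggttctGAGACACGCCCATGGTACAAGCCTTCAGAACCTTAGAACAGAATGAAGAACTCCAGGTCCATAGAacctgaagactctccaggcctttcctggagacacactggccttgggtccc
In GENCODE M21 the gene bodies overlap on opposite strands. Without the strand setting of the counting, reads of the overlap cannot be told apart between them, so the difference between their falls is uncertain.

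Genes beside the fusion genes were read because their reads could overlap. Of 17 other genes that overlap one of the 10 or lie within 5 kb in GENCODE M21 and are in the table, 11 were tested, 3 were higher, none was lower (0 also at an unadjusted p under 0.05) and 8 did not pass (edgeR). The share called higher, 27.3% of the 11, was near the 27.4% of all tested genes, and against 33.5% called lower among all genes 11 are too few to set the neighbours apart. DESeq2 called 3 higher and 1, Mob3a beside Izumo4, lower (log2 fold change -0.80, adjusted p = 0.0436). Kctd11, next to Tmem95, had 10.2 and 3.97 CPM in the knockdown libraries and 0.179 and 0 CPM in the WT libraries, and Zbtb7b, next to Dcst2, had 18 and 29.2 CPM in knockdown libraries and 1.07 and 4.2 CPM in WT. Adam15, next to Dcst1, rose by 1.03 on the log2 scale (SE 0.35; adjusted p = 0.0292). The Adam15 call was lost when any 1 library was left out, with log2 fold changes from 0.87 to 1.23, and when genes of the synaptonemal complex and cohesin set the scaling (0.46).

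Levels were then set against each other per kilobase of the longest GENCODE M21 transcript, which need not be the one made in these cells. In the WT mean Izumo4 came first at 128 CPM per kilobase, then Llcfc1 at 70.4 and Izumo2 at 35.5. Izumo3 followed at 19.5, Dcst2 at 17.6, Tmem95 at 13.6, Izumo1 at 11.4 and Dcst1 at 9.56 CPM per kilobase. From Izumo2 down to Dcst1, the ranges of the WT libraries overlapped between each gene and the next. Within each WT library Izumo2 had rank 3, while the order from Izumo3 down to Dcst1 differed between the WT libraries and is not fixed. Spaca6 was last, at 4.58 CPM per kilobase in the WT mean. In the knockdown libraries the order was another: Izumo4 remained first with a mean of 19.5 CPM per kilobase, and Spaca6 was second in both with a mean of 1.77. Dcst2, Tmem95 and Izumo1 had means of 0.371, 0.39 and 0.361 CPM per kilobase there.

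**Figure D2:**
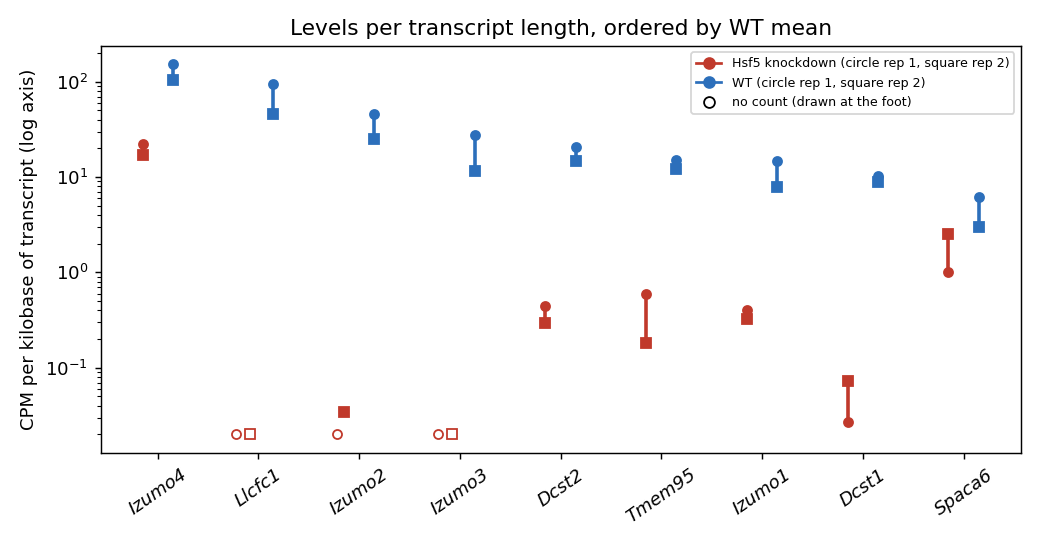
CPM per kilobase of transcript (log axis) of the 9 fusion genes with counts, ordered by WT mean, with knockdown libraries in red left of WT libraries in blue (replicate 1 circles, replicate 2 squares, open symbols without a count). Izumo4 was highest in every library, and Spaca6 was lowest in both WT libraries but second in both knockdown libraries.

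The WT libraries also differed from each other, and all 9 genes were lower in WT replicate 2 than in WT replicate 1. The log2 ratio of replicate 2 to replicate 1 (0.5 CPM added) was -1.21 for Izumo3, -1.03 for Llcfc1, -1.01 for Spaca6, -0.90 for Izumo1 and -0.85 for Izumo2. It was smaller for Izumo4 (-0.56), Dcst2 (-0.48), Tmem95 (-0.30) and Dcst1 (-0.18). Round and elongating spermatid markers had a median of -0.86 on this scale, mid and late pachytene markers -0.06 and Sertoli cell markers 1.03. Markers of early meiosis had a median of -0.44. By these medians the first 5 genes lay near the spermatid markers, Izumo4, Dcst2 and Tmem95 nearer the early meiosis markers and Dcst1 nearer the pachytene markers. Single markers overlapped between lists. They ran from -1.41 (Prm1) to -0.29 (Ldhc) for spermatids, -0.77 (Dmc1) to 0.12 (Prdm9) for early meiosis and -0.56 (Pgk2) to 0.48 (Piwil1) for pachytene. Most early meiosis markers were higher in the knockdown, where Izumo4, Dcst2 and Tmem95 were lower. Each ratio is of 1 library to 1 other and does not assign a gene to a stage.

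**Figure D3:**
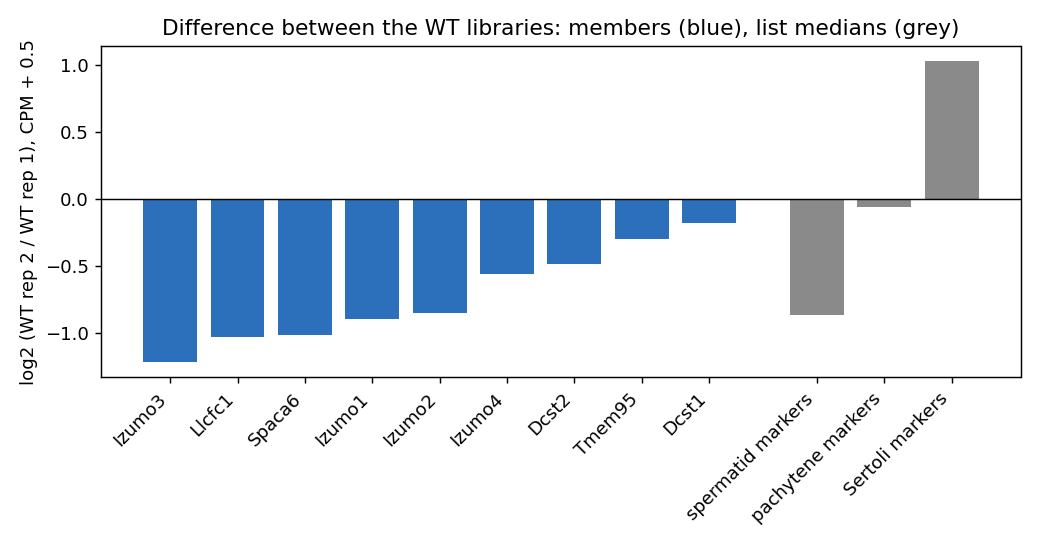
Log2 ratio of WT replicate 2 to WT replicate 1 (CPM with 0.5 added) for each fusion gene in blue and the median of 3 marker lists in grey. All 9 fusion genes lay below 0, from -1.21 (Izumo3) to -0.18 (Dcst1), with spermatid markers at -0.86 and Sertoli markers at 1.03.

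Markers of other cells moved with the comparison, in which 33.5% of all tested genes were called lower and 27.4% higher. All 15 spermatid markers fell, with sums of 303 and 205 CPM in the knockdown libraries and 9568 and 6469.5 CPM in the WT libraries, and Prm2, Prm3, Smcp, Cylc2 and Txndc8 had no knockdown count. Most of these sums came from Ldhc, a lactate dehydrogenase gene that pachytene cells also express, and the other 14 markers summed to 24.6 and 16.7 CPM in the knockdown libraries and 4294 and 2144 CPM in the WT libraries. Prm2, a protamine of condensing spermatids, had 686 and 400.2 CPM in the WT libraries, although these were labelled pachytene. Of 12 mid and late pachytene markers 11 fell, with sums of 2420 and 1955 CPM in knockdown libraries and 9108 and 10143 CPM in WT. All 10 Sertoli markers rose, with sums of 4428 and 5024 CPM in knockdown libraries and 197 and 478 CPM in WT, as did 9 of 11 spermatogonial, 7 of 7 Leydig and 6 of 6 macrophage markers. Of the markers of early meiosis 9 of 12 rose and 1 fell, and 3 of 4 tested peritubular myoid and 2 of 5 endothelial markers rose. Only 1 of the 7 Leydig markers was called without knockdown replicate 2 (edgeR), and the Leydig calls were lost with the synaptonemal and cohesin scaling (median log2 fold change 1.51). The genes used for that scaling leaned higher in the knockdown themselves (7 of 15 higher and 1 lower), so it lowers the other fold changes. In such bulk libraries fewer cells of a type and less RNA per cell cannot be told apart. The part of these cell types in the fall of the fusion genes was not tested.

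**Figure D4:**
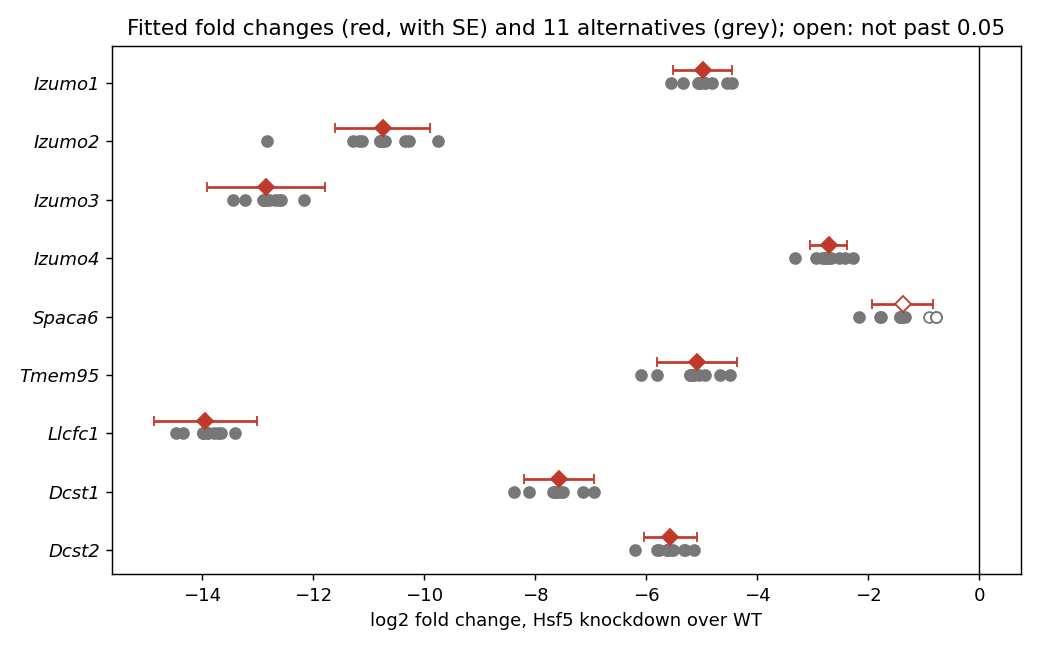
Log2 fold changes of Hsf5 knockdown over WT for the 9 tested fusion genes, with the main values and their SE as red diamonds and 11 alternative settings as grey circles; open symbols did not pass an adjusted p of 0.05. All values lie below 0, 8 genes passed under every setting shown, and Spaca6 passed under 6 of the 11 alternatives. For Llcfc1, Izumo3 and Izumo2 the fitted values depend on how counts of 0 are treated.

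Genes that assist the fusion proteins fell too. Of 10 such genes 9 were found and 6 tested. All 6 were lower, beside 33.5% of all tested genes, with a median log2 fold change of -3.58. Crisp2, a cysteine-rich acrosomal and tail protein, had 73.3 and 48.7 CPM in the knockdown libraries and 2103 and 1271 CPM in the WT libraries (log2 fold change -4.79, SE 0.44; edgeR, adjusted p = 3.99e-05). Eqtn, an acrosomal membrane protein, had a log2 fold change of -5.64 (SE 0.60). That of Tssk6, a testis kinase needed for IZUMO1 to relocate in the acrosome reaction, was -4.31 (SE 0.49). Without WT replicate 1 these were -4.87 for Eqtn and -3.64 for Tssk6. The smaller falls were those of Spesp1, an equatorial segment protein (-2.86, SE 0.37), Frey1, needed for maturation of the IZUMO1 complex in the endoplasmic reticulum (-2.17, SE 0.53), and Cd46 of the acrosomal membrane (-1.95, SE 0.60). Cd46 did not pass without knockdown replicate 1 (-1.62, adjusted p = 0.0815) or with library totals only (-1.50, adjusted p = 0.0576). Crisp1, Crisp3 and Crisp4 had at most 8 counts in a library and were not tested.

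The steps before fusion, zona binding and acrosome function, were largely lower as well. Of 30 genes 29 were tested, 26 were lower, 2 were higher and 1 did not pass, with a median of -5.50. Among all tested genes 33.5% were called lower and 27.4% higher. The smallest p-values were those of Adam1b, a sperm surface ADAM gene, Cmtm2a, one of a pair of genes needed to place ADAM3 on sperm, and Adam3 itself, needed for sperm to enter the oviduct. Cmtm2a had 1.14 and 0.63 CPM in the knockdown libraries and 987 and 643 CPM in the WT libraries, and Adam1b had 0.55 and 0.993 CPM in knockdown libraries and 206 and 215 CPM in WT. Tex101, a GPI-anchored germ cell protein, went against the list with 1567 and 636 CPM in knockdown libraries and 326 and 294 CPM in WT (log2 fold change 1.83, SE 0.44; edgeR, adjusted p = 0.00573). Tex101 was at 1.11 without knockdown replicate 1 and at 1.10 with the synaptonemal and cohesin scaling, and passed in both. Tpst2, a tyrosylprotein sulfotransferase, was higher with 21.9 and 19.4 CPM in knockdown libraries and 8.78 and 11 CPM in WT (1.06, SE 0.39; adjusted p = 0.0377). The Tpst2 call was lost without WT replicate 1 (0.89, adjusted p = 0.179), knockdown replicate 1 (1.04, adjusted p = 0.115) or knockdown replicate 2 (1.14, adjusted p = 0.0891). Ly6k, a partner of TEX101, had 388 and 154 CPM in knockdown libraries and 135 and 133 CPM in WT and did not pass (1.01, SE 0.41; adjusted p = 0.0578). Without knockdown replicate 2 Ly6k passed as higher (1.54, adjusted p = 0.000644), whereas it was at 0.27 without knockdown replicate 1 (adjusted p = 0.469) and also at 0.27 with the synaptonemal and cohesin scaling.

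Among genes of the egg side, those with enough counts to test were higher in the knockdown. Izumo1r, the JUNO gene, had no count in any library. Of 7 egg-side genes 3 were tested and all 3 were higher, beside 27.4% of all tested genes. Zp3 passed the filter for low counts through its knockdown libraries alone, so it could only be called higher. On genes averaging at least 1 CPM, 2 egg-side genes were tested and 2 were higher. Of the 4 not tested, Zp1 had 1 and 1 counts in the knockdown libraries and 10 and 4 counts in the WT libraries, and Zp2 had 2 and 4 counts in the knockdown and none in WT. Cd9 and Cd81 encode tetraspanins that the egg needs for fusion and that many somatic cells carry. Cd9 had 15.6 and 9.73 CPM in knockdown libraries and 1.64 and 1.6 CPM in WT (log2 fold change 2.96, SE 0.51; edgeR, adjusted p = 0.00102). Cd81 had 51.2 and 92 CPM in knockdown libraries and 3.28 and 17 CPM in WT, and Zp3, a zona pellucida glycoprotein, had 102 and 44 counts in the knockdown libraries and 2 and 0 counts in the WT libraries. Cd81 did not pass with the synaptonemal and cohesin scaling (log2 fold change 2.19, adjusted p = 0.0844, against 2.82 and 0.00542), and was at 2.06 without WT replicate 1 and 4.47 without WT replicate 2. Sertoli, Leydig and macrophage markers rose in the same libraries, as did most spermatogonial and early meiosis markers. The part of these cells in the rises of the egg-side genes was not tested. Fusogens of somatic tissues were near absent: of 6 genes 2 were tested, Syna, a syncytin of the placenta, which passed as lower at 0.487 and 0.775 CPM in knockdown libraries and 2.65 and 1.74 CPM in WT (adjusted p = 0.04), and Mymx of muscle, which did not pass. The Syna call was lost when WT replicate 1 or either knockdown replicate was left out (adjusted p = 0.181, 0.156 and 0.0532).

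Genes with profiles most like those of the 2 fusion genes highest in WT were picked by the root mean square distance of log2 CPM (0.5 added) over the 4 libraries. Tested genes with Gm, Rik, LOC or numbered clone symbols were left out of the picking. Nearest to Izumo4 were Tpgs2 (0.08), Ak7 (0.15), Cfap68 (0.16), Cenpn (0.18) and Aprt (0.19). Tpgs2 had 43.1 and 29.8 CPM in knockdown libraries and 261 and 188 CPM in WT. Nearest to Llcfc1 were Iqcf3 (0.10), Zp3r (0.11), Spem1 (0.12), Catsper4 (0.12) and Cabs1 (0.13). Zp3r, an acrosomal protein of the zona binding list, had no knockdown count and 62.5 and 38.1 CPM in WT. With 4 libraries in 2 groups many genes share such a profile.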

How the data were processed

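The authors deposited raw read counts per gene, 1 column per library, and each column was matched to a label by name. The submitters' processing notes name build mm39 and the tools DESeq2 1.46.0, featureCounts 1.5.3, HISAT2 2.2.1 and Trim Galore 0.6.10. Not given in the sources used here are the annotation, the strand setting and how reads matching several places were treated. Depth was 33287428 to 42479164 counts per library. The test was run with edgeR 4.0.16 in R 4.3.3 (filterByExpr, 23594 genes tested, TMM, quasi-likelihood F test, Benjamini-Hochberg over all tested genes at 0.05, no minimum fold). A gene with enough counts in 1 group only passes filterByExpr through that group, and can only be called higher there. Such genes are among the lists and neighbours too, for example Zp3r, Prm2 and Kctd11. SE is the log2 fold change over the square root of F, an approximation. Bounds use 3 counts over the group; bounds and intervals cover counting error only. Alternatives were other scalings, filters, DESeq2 1.42.0, the replicate number as a block and leaving out each library. With 1 library left out, the other group alone supplies the spread. The test was also run on simulated counts in which few genes changed, balanced between higher and lower. Such counts do not cover a shift as broad as the one in these libraries. Promoter windows came from RefSeq GRCm38.p6, lengths and neighbours from GENCODE M21, matched by symbol, with 9 of 10 windows found.

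The fusion genes and lists were chosen with earlier results of these data known. The fusion genes, up to 3 genes per list with the smallest p and those moving against their list were named by rule. Spesp1, Frey1, Cd46, Ly6k, Mymx and the neighbouring genes were named after their values were seen.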

Additional observations from a re-analysis of the deposited data

How the results depend on the processing

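The 8 fusion genes called lower passed under each of the 11 alternatives, and none of the 9 tested changed sign. The count of fusion genes called lower was 8 or 9, and none was called higher (DESeq2 Wald test, 9 lower and 0 higher). Spaca6 moved past the threshold without the low-count filter (-1.33), on genes averaging at least 1 CPM (-1.43), with the DESeq2 Wald test (-1.41), and without WT replicate 2 or knockdown replicate 2. Leaving out 1 library gave Spaca6 values from -2.17 to -0.78. With the replicate number as a block Spaca6 was at -1.43 and passed (edgeR, adjusted p = 0.0125), and 8351 genes were lower and 7016 higher. Under the block Ly6k also passed as higher (0.87, adjusted p = 0.0128). Same-numbered libraries deviated together (r = 0.321 across genes), but the labels give the numbers no shared animal or day, so the pairing is not used. The cause of the other changes was not tested.

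Of all genes 7902 were lower and 6467 higher. Scaling on synaptonemal complex and cohesin genes shifted the median of all genes from -0.12 to -0.71, with 8455 lower and 2952 higher. In the main comparison 7 of these 15 scaling genes were higher and 1 lower (median log2 fold change 0.89). Taking them as unchanged lowers the other fold changes. Library totals only gave a median of 0.31, with 6679 lower and 8122 higher, so calls split 45.1% lower in place of 55%. Zona binding and acrosome genes called higher numbered 1 under the synaptonemal scaling and 1 to 2 with 1 library left out. Of somatic fusogens 0 were lower with library totals only, 0 to 1 with 1 library left out, and 1 was higher without the filter. Mymx had -0.28 under the synaptonemal scaling, and 0.51 in the main comparison, and ranged from -0.16 to 1.66 with 1 library left out. Depth limits Tmem95, Dcst1 and Izumo2, whose knockdown groups held 19, 10 and 1 counts.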
